A study of Mus musculus with 6 samples.

Results

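The genes described here are 10 components of the bone morphogenetic protein (BMP) pathway, namely the ligand gene Bmp4, the receptor genes Bmpr1a and Bmpr2, the Smad genes Smad1 and Smad6, the antagonist genes Grem1 and Fst, and the target genes Id1, Id2 and Id3. They were selected by symbol through the Ensembl IDs in the GENCODE annotation. Of the 10 genes, 9 were found among 24938 IDs and 8 passed the filter on low values; Grem1 was not analysed here. Expression was measured by RNA sequencing in 6 libraries of NIH3T3 cells, an immortalised line of mouse embryonic fibroblasts. In 3 libraries the cells overexpressed F-CircAE, a circular RNA (a transcript with covalently joined ends) related to the leukaemia fusion AML1-ETO. The other 3 came from NIH3T3 cells labelled wild type, and neither age nor treatment is given for any of the 6. No empty vector group was included, so effects of the overexpression procedure and of the circular RNA cannot be told apart. The labels do not state whether the 3 libraries of a group were separate cultures, so p-values measure the spread between libraries, which may be technical.

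BMP ligands are secreted proteins that bring together type I receptors, such as the product of Bmpr1a, and type II receptors, such as that of Bmpr2. The type II receptor phosphorylates the type I receptor, which in turn phosphorylates Smad1 and its relatives, and these enter the nucleus with Smad4. The Id genes are among the best known direct targets of this signal in fibroblasts and other mesenchymal cells. Id proteins have a helix-loop-helix domain without a DNA-binding region and hold E proteins in dimers that do not bind DNA, which restrains differentiation.

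Values are FPKM, that is reads scaled by the authors to gene length and library size. Reads recovered from the steps between low FPKM values covered 19817 genes (79.5% of IDs) and numbered 11188206 to 14190146 in the overexpression libraries and 12394481 to 13678577 in the wild type libraries over those genes. Wild type replicate 3 stood apart from its group. The chi-square per gene, which is 1 for counting error alone, was 18.4 and 18.5 between it and wild type replicates 1 and 2, against 1.45 between replicates 1 and 2. It was nearer to overexpression replicates 1, 2 and 3, at 12.8, 9.76 and 8.1. Overexpression replicate 1 stood apart from its own group too, at 13.0 and 16.1 from overexpression replicates 2 and 3, against 4.54 between those. Wild type replicates 1 and 2 were so alike that wild type SDs may understate the spread of independent samples. Of 10 fibroblast markers 9 exceeded 1 FPKM in at least 1 library, the exception being Postn. Their summed level was 1754 to 2156 FPKM in the overexpression libraries and 1949 to 2474 FPKM in the wild type libraries, with wild type replicate 3 at 1949. Endothelial, adipocyte and osteoblast markers stayed below 1 FPKM, 9 genes in all. Some markers of other lineages did exceed 1 FPKM, namely Cdh1, Krt14, Cd68, Lyz2, Des and Acta2.

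None of the 8 tested genes passed the test of overexpression against wild type cells. The test was limma on log2(FPKM + 1) over 12222 genes with more than 1 FPKM in at least 3 libraries, with Benjamini-Hochberg adjustment over all of them. Across the transcriptome 0 genes (0%) passed an adjusted p of 0.05, with limma-voom on the recovered reads likewise giving 0. An unadjusted p below 0.05 was reached by 632 genes (5.17%) and by 0 of the 8. Weighting libraries by their estimated quality raised the calls to 18.3% of tested genes, again with 0 of the 8. The highest weights went to overexpression replicate 2 (4.64) and to the nearly alike wild type replicates 1 and 2 (2.16 and 2.57). The lowest went to wild type replicate 3 (0.236) and overexpression replicate 1 (0.278). With those wild type replicates averaged, weighting gave 0 genes. Log2 fold changes, overexpression over wild type, had a median of -0.053 in the 8 genes, with a range of -0.24 to 0.0047, beside a median of 0.0084 over all genes tested. The Id genes and Smad6 varied widely between libraries, the highest being at least 1.5 times the lowest for these 4 of the 8 genes and for 22.3% of all genes tested. Id1, Id2, Id3 and Smad6 all had their highest value in wild type replicate 3, by 1.32 to 1.84 times the next highest library. In bulk RNA, fewer cells expressing a gene and less of its RNA per cell cannot be told apart.

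**Figure D1:**
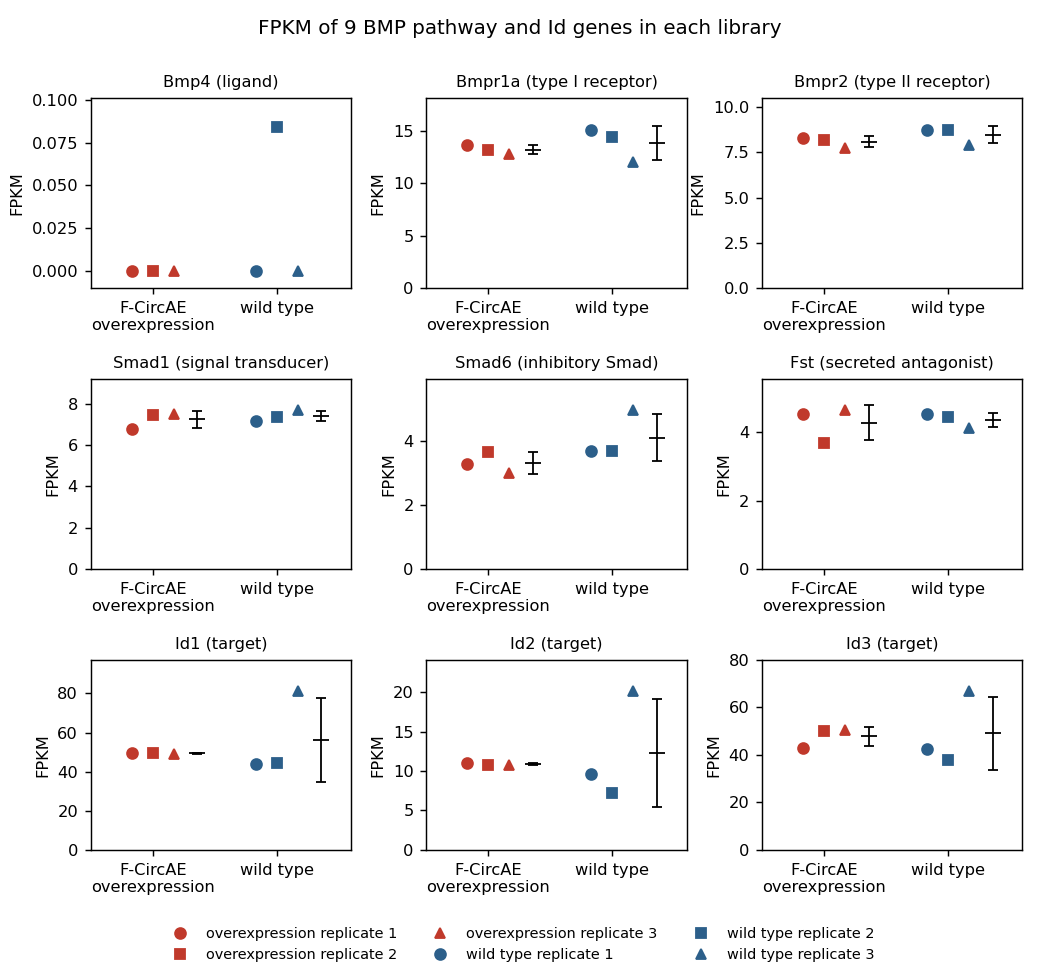
FPKM (vertical axes, from 0 except for a small margin in the Bmp4 panel) of 9 genes in the 3 overexpression libraries (red, left) and the 3 wild type libraries (blue, right), with marker shape giving the replicate number. Black bars are mean ± SD (n = 3), left out for Bmp4. The wild type replicate 3 triangle lies above all other libraries for Id1 (81.1 FPKM), Id2 (20.1 FPKM), Id3 (66.8 FPKM) and Smad6 (4.97 FPKM).

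Bmp4, the ligand gene, was close to undetected. It lies on chromosome 14 from 46383520 to 46390669 (mm10, ENSMUSG00000021835). It shares 89 exon bases with the opposite-strand gene Gm15217, and reads there cannot be assigned without strand. It was listed at 0 in all 3 overexpression libraries, and in wild type libraries at 0, 0.0842 and 0 FPKM in replicates 1, 2 and 3. Of 13 further ligand genes listed for the pathway, 7 were analysed and 0 passed the filter, none of the 7 reaching 1 FPKM in any library. The highest of them was Bmp6, which had 0.221, 0.501 and 0.467 FPKM in overexpression libraries and 0.243, 0.291 and 0.650 FPKM in wild type libraries. The groups overlapped, and the highest value was again that of wild type replicate 3.

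The receptor genes were expressed at moderate and even levels. Bmpr1a (ENSMUSG00000021796, chromosome 14, 34410734 to 34503341) encodes a type I receptor, the kinase that phosphorylates Smad1. Its level was 13.6, 13.2 and 12.8 FPKM in overexpression libraries, against 15.1, 14.4 and 12 FPKM in wild type libraries. The overexpression libraries lay inside the wild type range, with wild type replicate 3 the lowest of the 6. Its log2 fold change was -0.054 ± 0.087 (SE; 95% interval -0.26 to 0.15, limma adjusted p = 0.906). A stretch of 290 exon bases is shared with the antisense gene Gm17110, and reads there cannot be assigned without strand.

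Bmpr2 (ENSMUSG00000067336, chromosome 1, 59763400 to 59879014) encodes the type II receptor that is specific for BMPs. It had 8.29, 8.18 and 7.73 FPKM in overexpression libraries and 8.73, 8.74 and 7.92 FPKM in wild type libraries. Again replicates 1 and 2 were the highest wild type libraries and replicate 3 fell among the overexpression values. The log2 fold change was -0.061 ± 0.063 (SE), with a 95% interval of -0.21 to 0.088 (limma adjusted p = 0.865). Bmpr2 and Smad1 varied little, the highest library being 1.13 times the lowest for each, where this ratio had a median of 1.27 over all genes tested.

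Smad1 and Smad6 act on opposite sides of the signal. Smad1 (ENSMUSG00000031681, chromosome 8, 79338395 to 79399518), which carries it to the nucleus, had 6.78, 7.48 and 7.52 FPKM in overexpression libraries, against 7.17, 7.38 and 7.68 FPKM in wild type libraries. The groups overlapped almost completely (log2 fold change -0.026, 95% interval -0.18 to 0.12, limma adjusted p = 0.943). Smad6 (ENSMUSG00000036867, chromosome 9, 63953076 to 64022059) encodes an inhibitory Smad that binds activated receptors and Smad1, and is itself a BMP target. It had 3.28, 3.68 and 3.01 FPKM in overexpression libraries and 3.69, 3.70 and 4.97 FPKM in wild type libraries. Smad6 was the sole gene of the 8 whose groups did not overlap, where 4.69% of all tested genes were separated in that direction. The gap was narrow, overexpression replicate 2 and wild type replicate 1 differing by less than their counting error. Means were 3.32 ± 0.34 FPKM with overexpression and 4.12 ± 0.737 FPKM in wild type cells (SD, n = 3 each). The log2 fold change of -0.24 ± 0.12 (SE) had a 95% interval of -0.51 to 0.041 and did not pass (limma adjusted p = 0.842). Without wild type replicate 3 it was -0.12 (95% interval -0.34 to 0.096, limma adjusted p = 0.536).

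Fst encodes follistatin, a secreted protein that traps activins and, less tightly, several BMPs. It lies on chromosome 13 (ENSMUSG00000021765, 114452290 to 114458951) and shares 115 exon bases with the antisense gene Gm47040. Overexpression libraries had 4.52, 3.68 and 4.63 FPKM, and wild type libraries 4.52, 4.43 and 4.13 FPKM. Both the lowest and the highest value came from overexpression libraries (log2 fold change -0.027, 95% interval -0.24 to 0.18, limma adjusted p = 0.958).

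The promoters of Id2, Id3 and Smad6 are shown because these genes were highest together in wild type replicate 3. Sequences are from a RefSeq promoter table (GRCm38.p6) in which 8 of the 10 genes were matched, Id1 and Fst not being among them. Each runs 5′ to 3′ on the gene's strand from 250 bases before to 50 after the RefSeq start. That start lies inside the GENCODE gene given here for Id2 and Id3 and is the same for Smad6. Capitals mark matches on either strand to GGCGCC or GGAGCC, GC-rich motifs of the kind bound by BMP-activated Smads. Id2 lies on the minus strand (chr12:25096043-25096342), Id3 on the plus strand (chr4:136143572-136143871) and Smad6 on the minus strand (chr9:64022010-64022309).
Id2: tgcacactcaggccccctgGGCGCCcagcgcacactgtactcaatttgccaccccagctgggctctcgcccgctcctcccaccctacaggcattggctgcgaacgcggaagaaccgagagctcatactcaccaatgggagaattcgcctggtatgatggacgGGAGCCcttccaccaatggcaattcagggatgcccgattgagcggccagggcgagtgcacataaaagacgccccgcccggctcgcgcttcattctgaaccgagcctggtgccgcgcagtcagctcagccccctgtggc
Id3: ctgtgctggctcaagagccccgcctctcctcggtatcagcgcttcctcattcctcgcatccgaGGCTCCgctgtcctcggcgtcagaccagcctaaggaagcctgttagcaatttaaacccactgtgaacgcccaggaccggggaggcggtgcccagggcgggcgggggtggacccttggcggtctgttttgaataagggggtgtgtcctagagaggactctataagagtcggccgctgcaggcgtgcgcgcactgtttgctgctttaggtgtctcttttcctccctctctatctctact
Smad6: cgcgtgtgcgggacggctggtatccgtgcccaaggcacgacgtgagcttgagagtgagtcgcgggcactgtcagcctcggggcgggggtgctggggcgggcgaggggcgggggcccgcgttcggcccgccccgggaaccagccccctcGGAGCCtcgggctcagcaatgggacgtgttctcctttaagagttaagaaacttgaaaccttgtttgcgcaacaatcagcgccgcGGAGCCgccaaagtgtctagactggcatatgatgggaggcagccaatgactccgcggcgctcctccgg

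The motif GGAGCC occurred in all 3 windows, at base -88 from the start in Id2, at -187 in Id3 (as its complement GGCTCC) and at -102 and -18 in Smad6, positions being those of its first base. It is a common motif, present in 30.8% of 32851 promoter windows of the same length. GGCGCC occurred at -231 in Id2, without overlap with the other match, and is present in 11.9% of windows. TGACGTCA, found in 1.79% of windows, and CAGACA, found in 21% of windows, had no match in the 3 windows. G and C made up 63.3% of the bases in Id2, 60% in Id3 and 66.3% in Smad6, against a median of 52.7% over all windows. The shares of windows given for the motifs were not matched for this GC content. A match describes letters only and does not show binding.

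Id1 had the highest mean level of the BMP targets analysed. It lies on chromosome 2 (ENSMUSG00000042745, 152736251 to 152737410) and encodes an inhibitor of E proteins linked to proliferation and to the delay of differentiation. Overexpression libraries had 49.5, 49.7 and 49.2 FPKM, against 43.7, 44.2 and 81.1 FPKM in wild type libraries. The overexpression values were nearly identical and lay between wild type replicates 1 and 2 below them and wild type replicate 3 above. Means were 49.5 ± 0.236 FPKM with overexpression and 56.3 ± 21.4 FPKM in wild type cells (SD, n = 3 each). The value of wild type replicate 3 rested on 1801 reads (95% exact Poisson interval 77.4 to 84.9 FPKM), and that of the next highest library, overexpression replicate 2, on 1241 reads (47.0 to 52.6 FPKM). These intervals cover counting error only. All 3 overexpression values lay well inside the interval of overexpression replicate 2. Their SD of 0.236 FPKM was thus smaller than counting error and does not measure how alike the libraries were. The log2 fold change was -0.12 ± 0.23 (SE), with a 95% interval of -0.67 to 0.42 (limma adjusted p = 0.923).

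Id2 is the family member best known from lymphoid and mammary development. It lies on chromosome 12 (ENSMUSG00000020644, 25093799 to 25097140). It had 11, 10.8 and 10.8 FPKM in overexpression libraries and 9.58, 7.23 and 20.1 FPKM in wild type libraries. As for Id1, the overexpression values lay close together inside the wild type range. Reads were not recovered for this gene, so that closeness could not be set against counting error. The range of Id2 was the widest of the 8 genes, with the highest library 2.79 times the lowest, a ratio reached by 4.76% of all genes tested. The log2 fold change was -0.051 ± 0.32 (SE), and the 95% interval of -0.81 to 0.70 left a change of over 1.5-fold either way possible (limma adjusted p = 0.981).

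Id3 lies on chromosome 4 (ENSMUSG00000007872, 136143497 to 136145755) and encodes an Id protein that often overlaps with Id1 in expression and function. It had 43.1, 49.9 and 50.5 FPKM in overexpression libraries, against 42.4, 37.9 and 66.8 FPKM in wild type libraries. Wild type replicate 3 was again the highest of the 6 libraries and wild type replicate 2 the lowest. The 2292 reads of wild type replicate 3 gave an exact Poisson interval of 64.1 to 69.6 FPKM, above the 48.1 to 53.0 FPKM of overexpression replicate 3, the next highest. The log2 fold change was 0.0047 ± 0.20 (SE), with a 95% interval of -0.48 to 0.49 (limma adjusted p = 0.999). Its sign changed in 9 of 18 alternative settings.

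The 3 Id genes were high in the same library. Summed over Id1, Id2 and Id3, the level was 104, 110.4 and 110.5 FPKM in overexpression libraries and 95.6, 89.4 and 168 FPKM in wild type libraries. Their proportions changed less than their sum. The ratio of Id1 to Id3 was 1.15, 0.996 and 0.975 in overexpression libraries and 1.03, 1.17 and 1.21 in wild type libraries. Id2 made up 10.6%, 9.74% and 9.73% of the sum in overexpression libraries and 10%, 8.09% and 12% in wild type libraries, highest in wild type replicate 3. The E protein genes Tcf3, Tcf4 and Tcf12, whose products the Id proteins bind, summed to 52.5, 59.7 and 54.6 FPKM with overexpression and 55.1, 54.6 and 56.8 FPKM in wild type cells. That sum showed no comparable peak in wild type replicate 3.

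**Figure D2:**
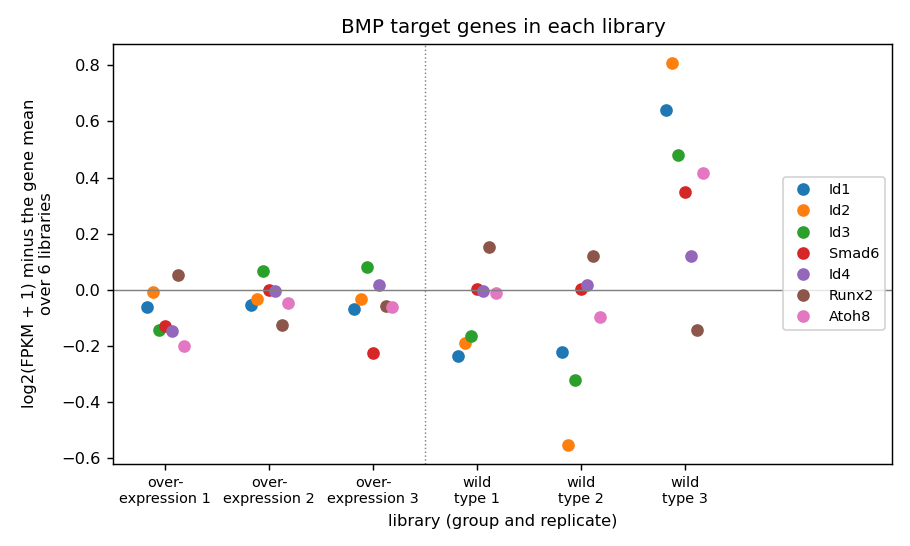
Deviation of log2(FPKM + 1) from each gene's mean over the 6 libraries (vertical axis), for Id1, Id2, Id3, Smad6 and the 3 tested genes of the list of further targets, Id4, Runx2 and Atoh8 (colours), in the 3 overexpression libraries (left of the dotted line) and the 3 wild type libraries (right). Of the 7 genes 6 are highest in wild type replicate 3, Id2 by the most (20.1 FPKM, 1.84 times the next highest library), and Runx2 is lowest there (5.91 FPKM).

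Genes at least 1.3 times higher in wild type replicate 3 than in the next highest library were rare in the transcriptome. They made up 1.23% of tested genes (150 of 12222), but included 4 of the 8 genes, Id1 (1.63 times), Id2 (1.84), Id3 (1.32) and Smad6 (1.34). The limit of 1.3 was chosen after the values were seen. With libraries rescaled to equal FPKM sums 3 of the 8 passed it, Smad6 being at 1.28 times, beside 1.17% of tested genes. Smad1, at 1.02 times, was the other gene highest in that library, and 17.9% of tested genes had their highest value there. Bmpr1a, Bmpr2 and Fst had higher values elsewhere. Equal upper quartiles left 4 of the 8 past the limit (1.26% of tested genes), and at a limit of 1.5 there were 2 of the 8, Id1 and Id2 (0.507% of tested genes).

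The gene most like Id2 over the 6 libraries was Arhgap9. Likeness was the root mean square difference of log2(FPKM + 1) after centring each gene, which was 0.11 for Arhgap9. That gene had 7.04, 6.21 and 6.12 FPKM with overexpression and 4.91, 4.45 and 10.5 FPKM in wild type cells. The next were an ID without a symbol (ENSMUSG00000083192) and Gsto1, which encodes an omega class glutathione S-transferase, each at 0.13. Among 12221 other genes Id1 came 8th in likeness to Id2 (0.16) and Id3 came 18th (0.18), whereas Atoh8 came 163rd (0.27) and Smad6 569th (0.32). Id2 was taken as the gene of widest range and was highest in wild type replicate 3, so the ranking partly restates that peak. Changes of low genes such as Smad6 are understated on this scale.

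**Figure D3:**
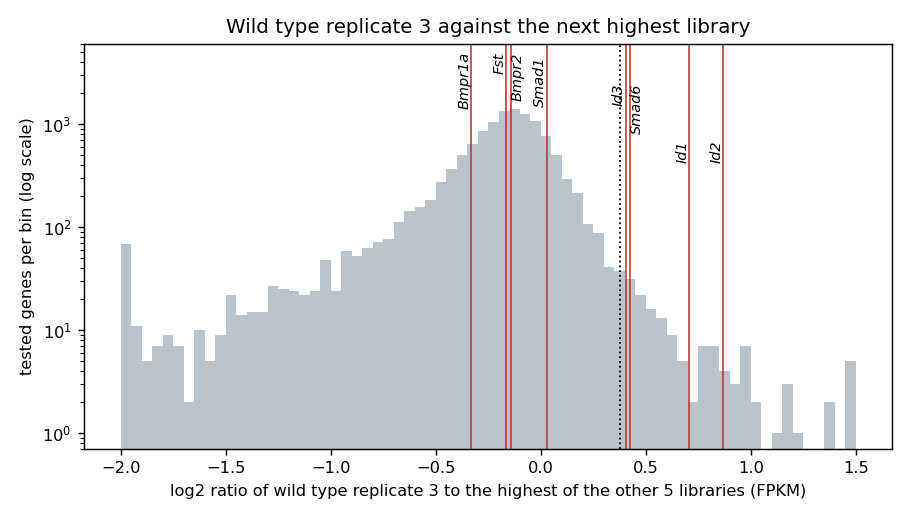
Number of tested genes (vertical axis, log scale) by the log2 ratio of wild type replicate 3 to the highest of the other 5 libraries (horizontal axis, values beyond the ends drawn in the end bins). Red lines mark the 8 genes and the dotted line a ratio of 1.3. Id1, Id2, Id3 and Smad6 lie to the right of the dotted line with 1.23% of all tested genes, and the receptors, Smad1 and Fst lie in the bulk.

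Because 1 library carried this spread, the comparison was repeated without it. The library was singled out after the values were seen, and it held the highest Id values. Leaving it out therefore raises the Id estimates in any case and narrows their intervals. Wild type replicates 1 and 2, which remain, were nearly alike (chi-square per gene 1.45), so the intervals below may understate the spread. With the 3 overexpression libraries set against wild type replicates 1 and 2, the log2 fold change was 0.17 for Id1 (95% interval 0.041 to 0.29, limma adjusted p = 0.269). It was 0.34 for Id2 (0.075 to 0.61, limma adjusted p = 0.273) and 0.25 for Id3 (0.018 to 0.47, limma adjusted p = 0.306). None passed, and all 3 estimates were above 0, where those of Id1 and Id2 were below 0 with every library. Without overexpression replicate 1 instead, the log2 fold changes were -0.12 for Id1, -0.06 for Id2 and 0.077 for Id3 (limma adjusted p = 0.983, 0.993 and 0.984). Without wild type replicate 3, the log2 fold change of Bmpr1a was -0.15 (-0.28 to -0.0074, limma adjusted p = 0.310). That of Bmpr2 was then -0.10 (-0.25 to 0.039, limma adjusted p = 0.433). Wild type replicate 3 had the lowest wild type value of both receptor genes (12 and 7.92 FPKM). Leaving it out therefore lowers these estimates in any case. In this comparison Id1, Id2 and Id3 lay above, and Bmpr1a, Bmpr2 and Smad6 below, wild type replicates 1 and 2 without overlap. Such separation was common there, holding for 21.8% of tested genes in the higher and 17.9% in the lower direction. An unadjusted p below 0.05 was reached by 4 of the 8 genes, beside 15.3% of all genes tested, and 2 genes (0.0164%) passed after adjustment.

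**Figure D4:**
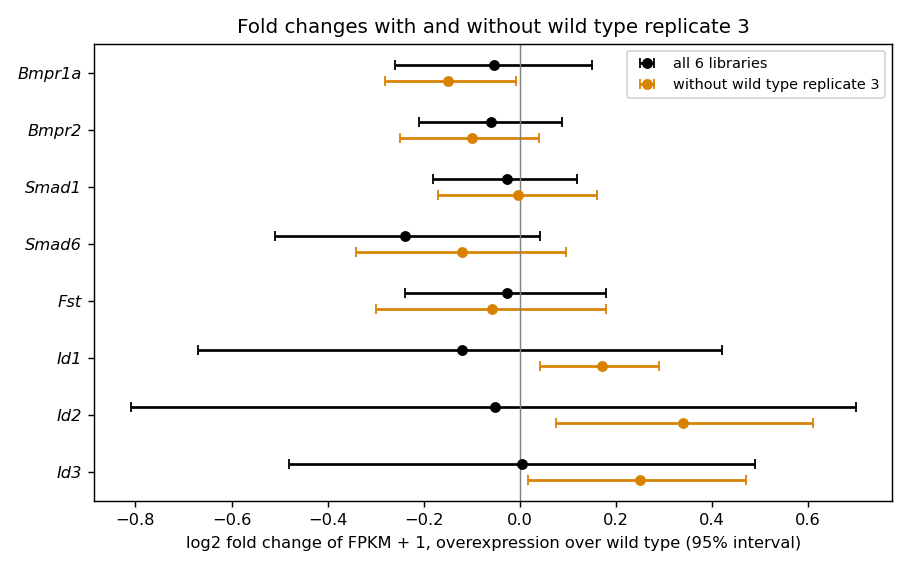
Log2 fold change of FPKM + 1, overexpression over wild type (horizontal axis), with 95% intervals, for the 8 tested genes with all 6 libraries (black) and without wild type replicate 3 (orange). Without that library the intervals of Id1, Id2 and Id3 shift to above 0 and become narrower, while those of Smad1 and Fst stay about 0. That library held the highest value of Id1, Id2 and Id3, so the upward shift of their estimates follows from leaving it out. It held the lowest wild type value of Bmpr1a and Bmpr2, so the downward shift of theirs does too.

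No other gene of the pathway passed the test either. Of 61 listed, 46 were analysed and 29 tested, and 0 passed in either direction (limma, all genes adjusted), with 0 at an unadjusted p below 0.05. Estimates were below 0 for 21 of the 29, beside 46.8% of all genes tested, with a median log2 fold change of -0.066. Inhba, which encodes the activin A chain that follistatin neutralises, had the smallest p. It had 11.1, 8.80 and 8.92 FPKM in overexpression libraries and 7.55, 8.21 and 8.65 FPKM in wild type libraries, without overlap (log2 fold change 0.21, 95% interval -0.021 to 0.44, limma adjusted p = 0.842). Its highest value was that of overexpression replicate 1, without which the log2 fold change was 0.11. Groups were separated in the higher direction for 6.81% of tested genes. In the lower direction, 4.69% of tested genes were separated, among the 29 only the receptor gene Acvr2a. It had 6.49, 6.64 and 6.15 FPKM with overexpression and 6.91, 6.79 and 6.74 FPKM in wild type cells (log2 fold change -0.074, limma adjusted p = 0.848). Inha, the inhibin alpha chain, had 4.32, 5.67 and 6.93 FPKM with overexpression and 7.09, 7.43 and 5.95 FPKM in wild type cells, with overlap (log2 fold change -0.25, limma adjusted p = 0.843). Bmp1, which despite its name encodes a protease that cleaves chordin and procollagens, had 17.4, 19.2 and 21.1 FPKM with overexpression and 21.6, 21.9 and 19.7 FPKM in wild type cells, also with overlap (log2 fold change -0.13, limma adjusted p = 0.843). For both, overexpression replicate 1 was the lowest library, and without it the log2 fold change was -0.10 for Inha and -0.061 for Bmp1.

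Among the remaining genes, the highest in each role other than the ligands lay well above the ligand genes analysed. Fstl1, a follistatin-related secreted glycoprotein, averaged 73.7 FPKM over the 6 libraries and Rgma, a BMP co-receptor, 24.4 FPKM. Acvr1, another type I receptor gene, averaged 8.90 FPKM, the Smad co-repressor gene Ski 21 FPKM and the E protein gene Tcf3 39.3 FPKM. Atoh8, a transcription factor gene induced by BMPs, was the highest of the further targets at 20.7 FPKM. It had 17.7, 19.8 and 19.6 FPKM in overexpression libraries and 20.3, 19.1 and 27.7 FPKM in wild type libraries, so that wild type replicate 3 was 1.37 times the next highest. Atoh8 was the sole gene of the 29 past the limit of 1.3, which 1.23% of all tested genes passed. With equal FPKM sums it was at 1.31 times. Its log2 fold change was -0.20 (95% interval -0.52 to 0.12, limma adjusted p = 0.843). It was -0.046 without wild type replicate 3, and -0.019 with array weights, which gave that library the lowest weight (0.236). Not every target followed that library. Runx2, a transcription factor of bone formation, had 6.91, 5.99 and 6.34 FPKM with overexpression and 7.48, 7.30 and 5.91 FPKM in wild type cells, with wild type replicate 3 the lowest of the 6. Bambi, a decoy receptor gene that BMPs induce, had 1.18, 1.13 and 1.3 FPKM with overexpression and 1.14, 1.35 and 0.922 FPKM in wild type cells, again lowest there. Id4, the remaining Id gene, had 5.48, 6.16 and 6.26 FPKM with overexpression and 6.15, 6.26 and 6.80 FPKM in wild type cells, with overlap.

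Some marker genes also had an unusual level in wild type replicate 3. Pdgfrb, a growth factor receptor of fibroblasts, had 6.91, 11.9 and 11.5 FPKM in overexpression libraries and 17.8, 17.1 and 7.60 FPKM in wild type libraries. Fn1, fibronectin, had 243, 345 and 343 FPKM in overexpression libraries and 541, 537 and 319 FPKM in wild type libraries. Wild type replicate 3 thus lay near the overexpression libraries for both genes, which were picked after their values were seen. Of the other fibroblast markers, Col1a1, Col3a1, Pdgfra and Vim also lay within the overexpression range in that library. Thy1 (0.873 FPKM), Fbn1 (14.5 FPKM), Col1a2 (405 FPKM) and Postn (0.03 FPKM) were instead lowest of the 6 libraries there. Of 6 epithelial markers 5 were analysed, and they summed to 7.09 to 8.12 FPKM in overexpression libraries and 5.95 to 8.81 FPKM in wild type libraries, with wild type replicate 3 the highest. Within that list Krt14 was highest of the 6 libraries in wild type replicate 3 (6.06 FPKM) and Krt8 lowest there (0.318 FPKM), whereas Cdh1 (2.41 FPKM) lay within the range of the others. The part of these differences in the Id values was not tested.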

How the data were processed

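RNA was sequenced in 6 NIH3T3 libraries, 3 a group. Per the labels' protocols, DNase was applied, an NEBNext Ultra kit was used, and paired reads of 125 or 150 bp came from an Illumina HiSeq. The build was mm10 per the submitters' processing notes; for the aligner, counter, use of strand and annotation, none is given in the sources used here. The deposited values are FPKM per Ensembl ID, per the file headers, scaled by the authors. Symbols, coordinates and lengths came from GENCODE M21 (24816 of 24938 IDs matched).

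The test took genes that exceeded 1 FPKM in 3 or more libraries. Moderation used the trend and robust options of limma 3.58.1 (R 4.3.3), fitted to log2(FPKM + 1) with a group term alone. Fold changes on this scale understate changes of low genes. The code was tested on simulated data. Reads were recovered from FPKM, exon union length and the value of 1 read, within 0.01 reads plus a relative 1e-08. They covered 5 of the 8 tested genes (not Smad1, Fst or Id2) and served for depth, counting intervals and limma-voom.

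Named genes were the 10 genes, the 3 other pathway genes with the smallest p, the highest in each role, and the 3 most like the gene of widest range. Id4, Acvr2a, Pdgfrb, Runx2, Bambi, Fn1, Krt14, Krt8, Cdh1 and the other fibroblast markers were named after their values were seen. The genes and lists were chosen with earlier results of these data known. Alternatives were other pseudocounts, filters, scalings and weights, a replicate block, averaging wild type replicates 1 and 2, and leaving out each library.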

Additional observations from a re-analysis of the deposited data

How the results depend on the processing

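No gene of the 8 passed under any of the 18 alternatives, each gene being tested in 16 to 18 of them; the filter at 5 FPKM left out Smad6 and Fst, and the recovered reads left out Smad1, Fst and Id2. Array weights gave 2241 genes (18.3%) and 6 of the 29 other pathway genes, among them Inha (-0.29, limma adjusted p = 0.0374) and Bmp1 (-0.16, limma adjusted p = 0.0436). With wild type replicates 1 and 2 averaged they gave 0. With all 6 libraries, array weights gave wild type replicate 3 the lowest weight (0.236). Estimates with array weights are therefore not independent of those without that library. Leaving out single libraries gave 0 to 2 genes, with 1 without overexpression replicate 1 and 2 without wild type replicate 3; the cause was not tested. Signs changed for Id1 (0.13 with array weights; -0.27 to 0.17 leaving out libraries, 0.17 without wild type replicate 3), Id2 (0.29 with array weights; -0.34 to 0.34, 0.34 without wild type replicate 3), Bmpr1a (-0.15 to 0.0084), Smad1 (0.026 with array weights; -0.049 to 0.016) and Fst (-0.076 to 0.057). For Id3 the log2 fold change was -0.059 with equal FPKM sums, -0.02 with equal upper quartiles, -0.038 after quantile normalization, -0.12 with wild type replicates 1 and 2 averaged, -0.062 with array weights added, and -0.15 to 0.25 leaving out libraries. Bmpr2, Smad6, Inhba, Inha, Bmp1 and Atoh8 kept their sign. At a limit of 1.5 times, 2 of the 8 genes stood out in wild type replicate 3. Equal FPKM sums gave 103 genes higher and 643 lower at an unadjusted p below 0.05, against 350 and 282 as deposited. With the replicate block 0 genes passed and 444 had an unadjusted p below 0.05; deviations of same-numbered libraries correlated at -0.102, 0.0833 and 0.00253, so the numbers were not taken as pairs. With 3 libraries a group and wild type replicate 3 apart, the intervals of the Id genes remain wide.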
